A study of Mus musculus with 3 samples.

Results

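Nucleolar ribosome biogenesis genes were followed in mouse female primordial germ cells at 3 embryonic stages. The genes were taken by name: every row of the expression table whose symbol starts with Rrp, Utp, Nop or Nol and a digit, plus Rrs1, Fbl, Ncl, Npm1, Dkc1, Gar1, Bop1, Pes1, Wdr12 and Nip7. This took 42 of the 14133 rows, and all 42 passed the minimum of 10 unique molecular identifiers (UMIs, tags that each mark 1 captured RNA molecule) over the 3 stages. In 41 of them the name fits a known role in making ribosomes. The remaining one, Nol4l, shares the letters of the name but is not known as a ribosome biogenesis factor.

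The cells came from fetal ovaries of C57BL/6 embryos at E16.5, E14.5 and E12.5 and were sorted for the reporter Oct4-EGFP, in which green fluorescent protein reports on the pluripotency factor Oct4 (Pou5f1). All 3 groups share this strain, reporter and sort, and no group carries a treatment or mutation. Each stage is 1 droplet-based single-cell library (10x Genomics, 3' ends), so stage and library cannot be told apart, no test between stages is possible and no p-value is given. The labels do not state how many embryos were pooled.

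The libraries held 4706, 9075 and 5363 cells at E12.5, E14.5 and E16.5, with medians of 26691.5, 10960 and 12659 UMIs per cell. After 38 cells marked as doublets were left out, all 10 clusters had at least 21 of 36 germ cell markers in at least 10% of their cells. Of these, 1 cluster was called pregranulosa-like, since it also had 20 of 21 markers of the ovary's supporting cells, against 0 to 2 in the others, and it was left out although it had 23 of the 36 germ cell markers. The other 9 are called germ-cell-like, and held 4678 of 4703, 8903 of 9069 and 5312 of 5334 remaining cells at the 3 stages in time order (99.47%, 98.17% and 99.59%). At E12.5, 666 of the 4678 germ-cell-like cells held a UMI of a Y-linked gene, which goes against the female label, while 0 did at the later stages. Without these cells the counts of lower genes given below for E14.5 and E16.5 against E12.5 were the same, 15 and 12. Barcodes shared by 2 libraries numbered 173, and 0 were shared by all 3.

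Ribosomes are built in the nucleolus, where RNA polymerase I makes a long precursor of ribosomal RNA. Small nucleolar particles modify this precursor, the small-subunit processome folds and cuts the part that becomes the small subunit, and a separate set of factors assembles the large subunit. Growing and dividing cells make these factors in quantity, and the MYC family of transcription factors, which bind the E-box CACGTG, is a known activator of many of their genes. Between E12.5 and E16.5 female mouse germ cells stop dividing and enter the prophase of meiosis.

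Promoter letters are shown first, for genes chosen as contrasts in the values that follow: Rrp9 and Gar1 had much lower levels at the later stages, Nop2 was lowest at E14.5 and higher again at E16.5, and Utp18 differed little. The RefSeq promoter table (build GRCm38.p6) held 33 of the 42 genes, each as 250 bases before the start and 50 after it. The lines give the 250 bases before the start, 5' to 3' on the gene's strand. They cover chr9:106477059-106477308 (Rrp9, plus strand), chr3:129831397-129831646 (Gar1, minus strand), chr6:125131633-125131882 (Nop2, plus strand) and chr11:93885767-93886016 (Utp18, minus strand). The RefSeq start of Rrp9 lies inside the longer gene bounds of the GENCODE annotation given below. Capitals mark the E-box letters CACGTG and the ETS-type letters TTCCGG or their reverse complement CCGGAA.
Rrp9: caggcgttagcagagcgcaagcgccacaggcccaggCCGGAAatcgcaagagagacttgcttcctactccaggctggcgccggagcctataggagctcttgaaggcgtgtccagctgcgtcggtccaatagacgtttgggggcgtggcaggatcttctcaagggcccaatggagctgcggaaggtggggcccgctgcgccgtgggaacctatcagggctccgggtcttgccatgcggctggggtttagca
Gar1: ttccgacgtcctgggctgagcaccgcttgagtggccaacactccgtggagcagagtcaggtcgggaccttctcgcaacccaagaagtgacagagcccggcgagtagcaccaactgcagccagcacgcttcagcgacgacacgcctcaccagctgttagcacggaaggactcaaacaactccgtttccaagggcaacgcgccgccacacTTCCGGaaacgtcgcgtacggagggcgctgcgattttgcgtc
Nop2: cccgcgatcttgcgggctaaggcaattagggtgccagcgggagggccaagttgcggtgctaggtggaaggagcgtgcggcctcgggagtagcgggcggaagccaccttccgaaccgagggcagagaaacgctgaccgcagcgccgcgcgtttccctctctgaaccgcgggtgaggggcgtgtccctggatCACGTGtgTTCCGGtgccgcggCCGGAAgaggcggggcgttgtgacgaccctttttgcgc
Utp18: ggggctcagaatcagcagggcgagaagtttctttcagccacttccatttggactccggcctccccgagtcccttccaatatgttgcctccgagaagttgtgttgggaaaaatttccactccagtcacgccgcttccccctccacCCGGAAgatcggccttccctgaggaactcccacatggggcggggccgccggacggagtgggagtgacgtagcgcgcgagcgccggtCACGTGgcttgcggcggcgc
In this window Nop2 and Utp18 hold the E-box letters and Rrp9 and Gar1 do not. The first base of the E-box is 60 bases before the start in Nop2 and 20 bases before it in Utp18. All 4 windows hold ETS-type letters, and in Gar1 the match runs on so that the letters of both strands overlap there. On either strand of the full 300 bases, 7 of the 33 promoters (21.2%) held CACGTG, against 11.6% of the 11024 genes of the table that have a promoter entry. TTCCGG was present in 48.5% of the 33 and in 30.5% of the table's genes, and GGGCGG (the SP/KLF type) in 72.7% and 68.5%. The letters CCAAT were in 36.4% of the 33 and in 43.5% of the table's genes. The longer NRF1-type palindrome was in 0% and 2.29%, and another long palindrome that was searched in 3.03% and 1.21%. By their letters, matches of CACGTG and TTCCGG cannot overlap on either strand. The E-box genes were Nop2, Utp18, Utp14b, Nol11, Rrp7a, Utp20 and Pes1, and they did not all share 1 pattern over the stages. By steps of 1.5-fold, Utp18, Utp14b, Nol11, Utp20 and Pes1 were level throughout, as were 15 of the 42 genes. Rrp7a was lower at E14.5 and then level, and Nop2 was lower and then higher again. The promoter matches describe letters and not binding.

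Germ cells held less RNA of these genes at both later stages than at E12.5. The 42 genes together had 266, 68.7 and 85.2 UMIs per cell at E12.5, E14.5 and E16.5. Cells at E12.5 also had more UMIs in all, so levels are given as CPM, the UMIs of a gene per 1000000 UMIs, summed over the germ-cell-like cells of a stage, with exact Poisson 95% intervals that cover counting error only. On that scale the summed level was 9931 CPM (9913 to 9948) at E12.5, 5964 CPM (5949 to 5979) at E14.5 and 6560 CPM at E16.5. As a share of a cell's UMIs, with each cell thinned to 5000 UMIs, the median was 0.98%, 0.58% and 0.64% in time order. The middle 90% of cells lay at 0.72 to 1.3% at E12.5, at 0.38 to 0.84% at E14.5 and at 0.40 to 0.98% at E16.5, so single cells of different stages overlapped.

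**Figure D1:**
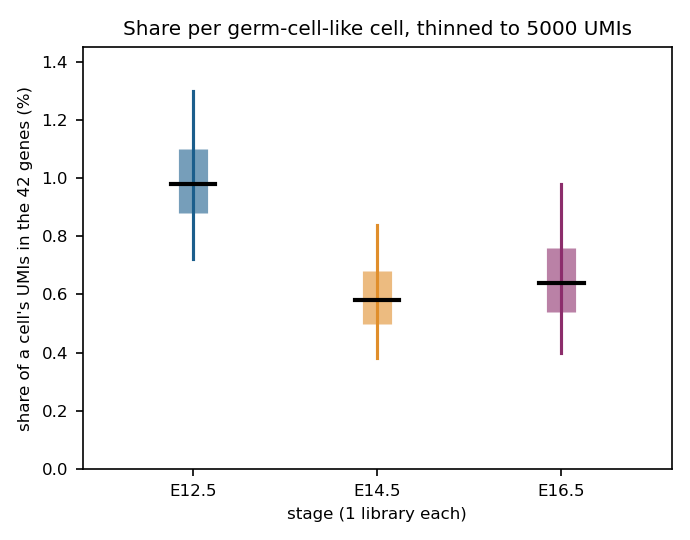
Share of a germ-cell-like cell's UMIs that fall in the 42 genes (%, y axis) at each stage (x axis, 1 library each), with cells thinned to 5000 UMIs. Black lines are medians (0.98, 0.58 and 0.64%), boxes span the middle 50% of cells and thin lines the middle 90%, and the spread is between cells, not between animals.

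At E14.5 against E12.5, 15 of the 42 genes (35.7%) were lower by at least 2-fold and 1 was higher by as much, the name-only match Nol4l. Of the 14132 genes with enough UMIs, 16.3% were lower and 31.2% higher by that rule. The median log2 ratio was -0.88 over the 42 genes and 0.30 over all genes, and 40 of the 42 ratios were below 0, as were 5714 of all genes. A scaling by the median of gene ratios, which moves the median of all genes from 0.30 to -0.03, gave 23 lower genes and a median of -1.21, with 22.3% of all genes lower and 25.2% higher.

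E16.5 differed less from E14.5, with 0 of the 42 genes lower by at least 2-fold and 3 higher (Nol4l, Nol8 and Utp15), and a median log2 ratio of 0.10. Over all genes 17.4% were lower, 16.3% higher and the median was 0.06. The other scaling gave 0 lower and 2 higher (Nol8 and Utp15), beside 18.2% and 15.4% of all genes. At E16.5 against E12.5, 12 genes were lower by at least 2-fold and Nol4l alone was higher, with a median of -0.65. Over all genes 22.7% were lower, 37.0% higher and the median was 0.39. The other scaling gave 21 lower and 1 higher, beside 28.8% and 30.1% of all genes. These comparisons share libraries, so they are not separate evidence.

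At a smaller step of 1.5-fold, 24 of the 42 genes were lower and 1 higher at E14.5 against E12.5, beside 24.3% and 41.6% of all genes. At E16.5 against E14.5, 2 were lower and 9 higher, beside 25.6% and 27.5%. At E16.5 against E12.5, 22 were lower and 2 higher, beside 29.5% and 45.4%. By these steps 16 genes were lower at E14.5 and then level, 7 were lower and then higher again, and 15 were level throughout. E12.5 was the stage of highest level for 37 of the 42 genes, while E14.5 was the stage of lowest level for 27 and E16.5 for 14.

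**Figure D2:**
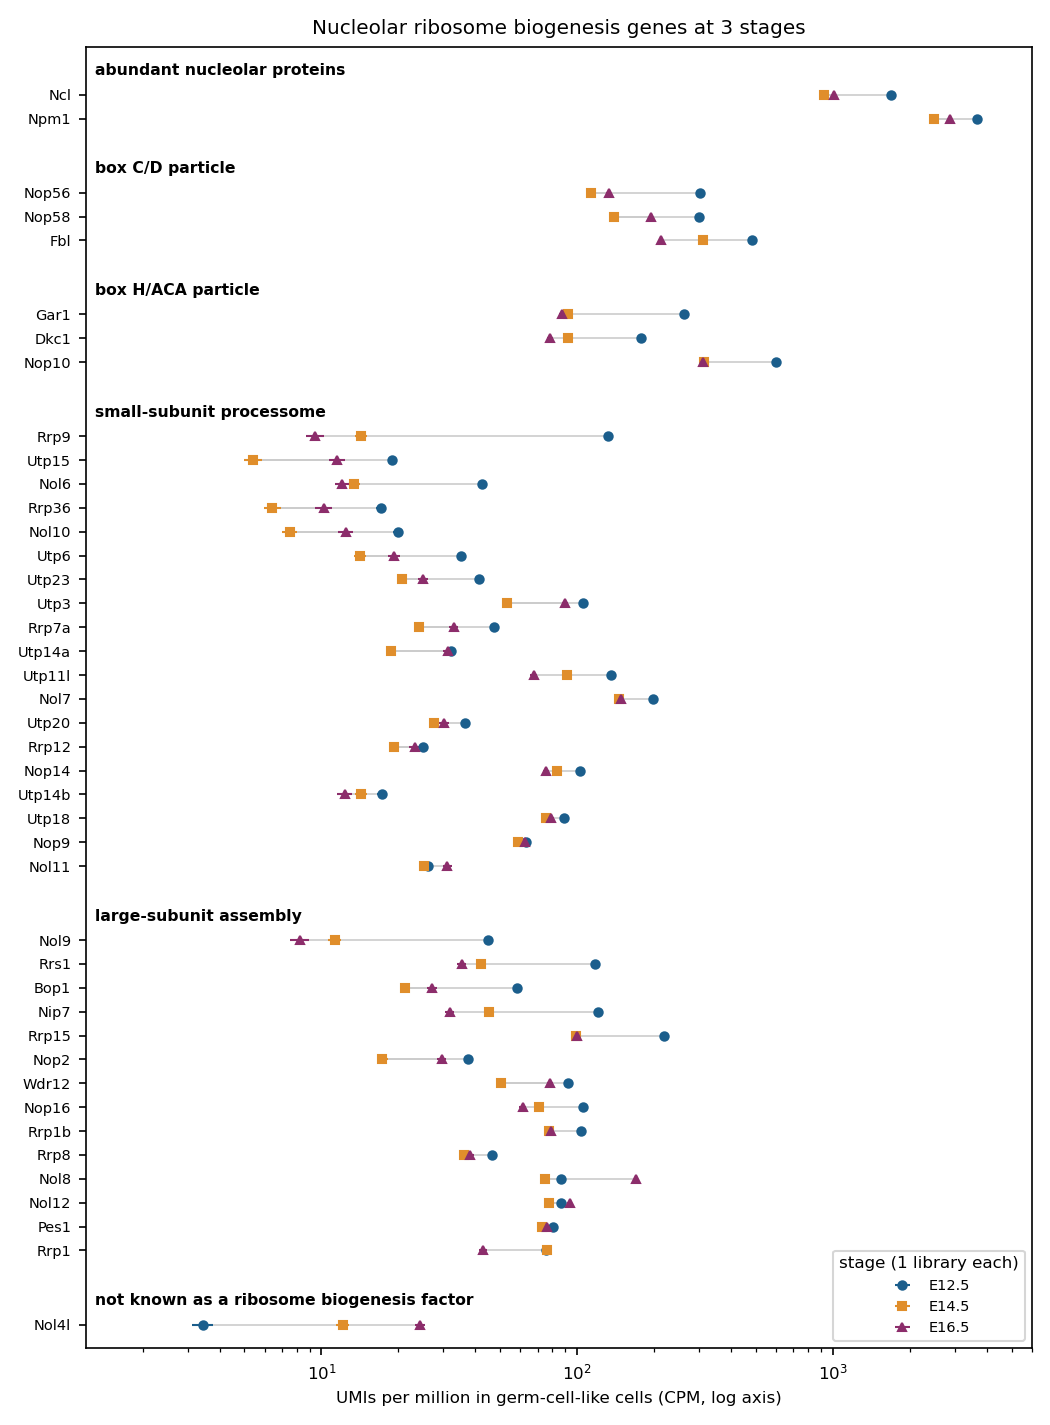
Level of each of the 42 genes (CPM on a log axis, x axis) in germ-cell-like cells at each stage, grouped by role. Points are single libraries and short bars exact Poisson 95% intervals, and in 37 rows the E12.5 circle is the rightmost point.

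The 2 genes with the most RNA in the set were Npm1 and Ncl. Npm1 moved less than many others. At E14.5 against E12.5 the log2 ratio of Ncl was -0.88, as was the median of the 42 genes. Npm1 (nucleophosmin, a chaperone of the outer nucleolus, chr11:33152287-33163206) had 3656 CPM (3645 to 3666) at E12.5, 2481 CPM (2472 to 2491) at E14.5 and 2856 CPM (2843 to 2868) at E16.5. Ncl (nucleolin, an RNA-binding protein of the nucleolus, chr1:86344719-86359400) had 1692, 918 and 1006 CPM in time order. Both were lowest at E14.5, where Npm1 was 1.47-fold and Ncl 1.84-fold lower than at E12.5. Their summed level, 5347, 3400 and 3862 CPM, was over 50% of that of the 42 genes at each stage, so sums over the set follow them. Without them the other 40 genes summed to 4584, 2564 and 2698 CPM. Ncl, Nop56 and Nop58 hold genes of small RNAs within their bounds, whose reads the counting may not separate.

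The box C/D particle adds methyl groups to ribosomal RNA. RNA of 3 of its core proteins, Fbl, Nop56 and Nop58, was lower at both later stages than at E12.5. Fbl (fibrillarin, its methyltransferase) had 483, 311 and 214 CPM at E12.5, E14.5 and E16.5. Nop56 (chr2:130274430-130279313), a scaffold of the particle, had 303 CPM (300 to 306) at E12.5, 113 CPM (111 to 115) at E14.5 and 133 CPM (130 to 135) at E16.5. Nop58, the paired scaffold, had 299, 139 and 194 CPM. At E14.5 the scaffolds stood below E12.5 by 2.67-fold for Nop56 and 2.15-fold for Nop58, and they were higher again at E16.5. Fbl was 1.55-fold lower at E14.5 than at E12.5 and 2.26-fold lower at E16.5 than at E12.5. Nhp2l1, also of this particle but outside the name rule, ran the other way. Against E12.5 it was 1.87-fold higher at E14.5 and 1.76-fold higher at E16.5.

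The box H/ACA particle converts uridine to pseudouridine in ribosomal RNA. Dkc1 (dyskerin, its enzyme, on chromosome X) had 178, 91.7 and 78.4 CPM in time order. Gar1 (chr3:129824912-129831396), whose promoter is printed above, had 261 CPM (258.4 to 264.1) at E12.5, 92.2 CPM (90.4 to 94.1) at E14.5 and 87.4 CPM (85.2 to 89.7) at E16.5. Nop10, the smallest core protein, had 598, 313 and 312 CPM. All 3 were lower at E14.5 than at E12.5, by 2.83-fold for Gar1, 1.94-fold for Dkc1 and 1.91-fold for Nop10, and none stood higher at E16.5 than at E14.5.

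The small-subunit processome and its partners were 19 of the 42 genes. At E14.5 against E12.5, 6 of the 19 were lower by at least 2-fold and 0 higher, beside 16.3% and 31.2% of all genes. On the log2 scale 19 were below 0, with a median of -0.78. At E16.5 against E12.5, 3 of the 19 (15.8%) were lower and 0 higher, beside 22.7% and 37.0% of all genes. The 2-fold share was thus below that of all genes there, while 18 were below 0 and the median was -0.49. Rrp9, a protein of the U3 small nucleolar particle that starts the processome, had the largest ratio of all 42 genes. Its level was 132 CPM (130 to 134) at E12.5, 14.3 CPM (13.6 to 15.03) at E14.5 and 9.45 CPM (8.74 to 10.2) at E16.5, 9.25-fold lower at E14.5 and 13.97-fold lower at E16.5 than at E12.5. Its gene (chr9:106475963-106485424, plus strand) shares exon sequence with Parp3 on the opposite strand, and the strand setting of the counting is not stated in the labels. The same limit holds for other genes of the 42 that share exon sequence with a gene on the opposite strand. Among them are Rrp1b (with Hsf2bp), Pes1 (4930556J24Rik), Dkc1 (Mpp1), Bop1 (Mroh1), Wdr12 (Carf), Rrp7a (Serhl) and Nop56 (Idh3b). Rrp9 was also the one gene of the 42 at least 1.5-fold lower at both steps.

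Nol6, a core processome protein, had 42.5, 13.4 and 12.1 CPM at E12.5, E14.5 and E16.5, and was 3.18-fold lower at E14.5 than at E12.5. Utp15, of the subcomplex that joins the precursor first, had 18.9 CPM (18.2 to 19.7), 5.40 CPM (4.96 to 5.87) and 11.5 CPM (10.7 to 12.3). Its E14.5 level was 3.50-fold below that of E12.5, and at E16.5 it stood 2.13-fold above E14.5. Utp3 showed the same order at a smaller ratio, with 106, 53.0 and 89.6 CPM. Rrp36, Nol10 and Utp14a likewise passed 1.5-fold in both steps, lower at E14.5 than at E12.5 and higher at E16.5 than at E14.5. Utp14a, on chromosome X, had 32.2, 18.7 and 31.3 CPM.

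Other processome genes differed by less. Nol11, a partner of Utp15 in the same subcomplex, had 26.1, 25.3 and 31.1 CPM in time order, and Utp18 had 88.8, 75.5 and 79.2 CPM. Nol7 had 198, 145 and 149 CPM. Utp14b, a retrotransposed relative of Utp14a with a role in the male germ line, had 17.3, 14.3 and 12.3 CPM. The Utp14b gene shares exons with Acsl3 on the same strand, so its counts are uncertain.

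Large-subunit assembly factors were 14 of the 42. At E14.5 against E12.5, 6 of the 14 were lower by at least 2-fold, 0 were higher and 13 were below 0, with a median log2 ratio of -0.72, beside the same 16.3% and 31.2% of all genes. Nol9 (chr4:152039321-152061494), a kinase that acts on the cut spacer of the precursor, had 44.6 CPM (43.5 to 45.8) at E12.5, 11.3 CPM (10.7 to 11.96) at E14.5 and 8.23 CPM (7.57 to 8.94) at E16.5. It was 3.95-fold lower at E14.5 and 5.42-fold lower at E16.5 than at E12.5. Rrs1, which helps bring the 5S particle into the subunit, had 117, 42.02 and 35.4 CPM. Nip7 had 121, 45.1 and 31.7 CPM, and Rrp15 had 218, 99.3 and 100 CPM. All of these were lower by over 2-fold at both later stages. Nop2, a methyltransferase of large-subunit RNA whose promoter is printed above, had 37.4, 17.3 and 29.5 CPM, with E16.5 back above E14.5.

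The 3 proteins of the PeBoW complex, which work together in large-subunit assembly, did not move together. Bop1 had 58.4 CPM (57.1 to 59.8) at E12.5, 21.2 CPM (20.3 to 22.1) at E14.5 and 27.2 CPM (25.9 to 28.4) at E16.5. Wdr12 had 92.1, 50.2 and 78.3 CPM. Pes1 had 80.2 CPM (78.7 to 81.8), 73.0 CPM (71.4 to 74.7) and 76.4 CPM (74.4 to 78.5). At E14.5 against E12.5 Bop1 was thus 2.75-fold lower, Wdr12 1.83-fold lower and Pes1 1.099-fold lower.

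A few genes did not follow the main order. Nol8 (chr13:49653078-49679016) had 86.8 CPM (85.1 to 88.4) at E12.5, 74.6 CPM (72.9 to 76.3) at E14.5 and 170 CPM (166 to 173) at E16.5, so E16.5 stood 2.27-fold above E14.5. Rrp1 had 75.7, 76.4 and 42.9 CPM, with its lower level at E16.5 alone, although its relative Rrp1b had 104, 77.4 and 79.1 CPM. Nol12 had 86.5, 77.9 and 93.4 CPM. The direction of Rrp1 at E14.5 against E12.5, of Rrp15, Nol7 and Rrp1b at E16.5 against E14.5, and of Nol11 and Nol12 at E16.5 against E12.5 turned round with the scaling by the median of gene ratios. Nol4l, the name-only match, had 3.44, 12.1 and 24.3 CPM and was 7.08-fold higher at E16.5 than at E12.5.

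Other genes of the pathway were taken from lists by function, 116 in all, so that genes outside the name rule could be set beside it. At E14.5 against E12.5, 39 of the 116 (33.6%) were lower by at least 2-fold and 2 higher, with a median log2 ratio of -0.72. At E16.5 against E14.5 the numbers were 3 lower and 6 higher (median 0.10), and at E16.5 against E12.5 they were 50 lower and 7 higher (median -0.69). Over all genes the shares lower and higher were 16.3% and 31.2%, 17.4% and 16.3%, and 22.7% and 37.0% in the same order of comparisons. Factors that assemble small nucleolar particles were lower at E14.5 than at E12.5 in 6 of 12 (50%), other large-subunit factors in 17 of 39 (43.6%) and other small-subunit factors in 11 of 36 (30.6%). Genes of the exosome, which trims the precursor, were listed with its cofactors and the separate exonuclease Xrn2, and 3 of 14 were lower (21.4%). Genes of RNA polymerase I and its factors were lower in 2 of 15 (13.3%). Both shares were near the 16.3% of all genes. Their median log2 ratios were nonetheless -0.72 for the exosome list and -0.58 for the polymerase list, beside 0.30 over all genes. Ratios below 0 numbered 12 of 14 and 12 of 15. At E16.5 against E12.5, 7 of 14 exosome genes (50%) were lower and 0 higher. Of the polymerase list 4 of 15 (26.7%) were lower and 2 higher, beside 22.7% and 37.0% of all genes.

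Tcof1 (treacle, which links RNA polymerase I to particle assembly) had 75.6, 14.1 and 12.4 CPM at E12.5, E14.5 and E16.5. Nhp2, the fourth core protein of the box H/ACA particle, had 721, 286 and 174 CPM. Both were lower at each later stage, and Tcof1 was 5.35-fold lower at E14.5 than at E12.5. Among large-subunit factors Nle1 had 28.3, 5.62 and 5.26 CPM and Wdr18 had 318, 134 and 53.6 CPM. Rcl1, a small-subunit factor, had 117, 27.7 and 23.7 CPM, and the exosome subunit Exosc4 had 90.6, 18.9 and 31.6 CPM.

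Subunit genes of RNA polymerase I differed. In time order Polr1d had 305, 271 and 217 CPM, Polr1a had 29.5, 36.3 and 28.8 CPM and Polr1b had 27.8, 16.9 and 10.8 CPM. Of the factors that work with the polymerase, Ubtf (its upstream binding factor) had 135, 81.8 and 26.8 CPM. Rrn3 (its initiation factor) had 86.5, 34.3 and 23.8 CPM. Taf1b, of the promoter selectivity factor, ran the other way with 19.8, 39.0 and 96.6 CPM. The helicase gene Ddx10 also ran upward, with 103, 252 and 350 CPM, and Ddx24 with 169, 310.5 and 489 CPM. Nhp2l1, shared by the box C/D particle and the spliceosome, had 581, 1089 and 1021 CPM.

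Within the MYC family, Mycn had 116, 32.6 and 5.57 CPM at E12.5, E14.5 and E16.5. Its partner Max had 63.5, 39.8 and 27.8 CPM. Mxd4, a member that competes for Max, had 9.42, 123 and 70.1 CPM, 13.0-fold higher at E14.5 than at E12.5. Mycl had 11.8, 15.1 and 4.204 CPM, Mxi1 had 11.1, 16.3 and 16.2 CPM, and Mxd3 had 7.96, 6.46 and 1.49 CPM. Mnt had 7.21, 2.85 and 5.22 CPM, Mxd1 had 2.19, 3.19 and 8.61 CPM, and Myc had 0.743, 0.107 and 0.0580 CPM. The part of these genes in the levels of the 42 was not tested.

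Ribosomal protein genes, which encode the ribosome itself, differed from the factors that build it. The 83 cytosolic ribosomal protein genes summed to 291493, 320584 and 314041 CPM, with a median log2 ratio of 0.12 at E14.5 against E12.5 and 1 gene lower and 1 higher by at least 2-fold. The 76 mitochondrial ones had a median of -0.08 with 6 lower and 1 higher. The 39 proteasome subunit genes had a median of -0.47 with 7 lower (17.9%) and 1 higher. The 2-fold share of the proteasome list was thus near the 16.3% of all genes, although 29 of its 39 ratios were below 0. At E16.5 against E12.5, 11 of the 39 (28.2%) were lower and 1 higher, with a median of -0.63. That was close to the 42 genes, with 12 lower (28.6%) and a median of -0.65, beside 22.7% of all genes. In that comparison 3 of 83 cytosolic (median 0.14) and 10 of 76 mitochondrial (median -0.21) ribosomal protein genes were lower. The ribosomal and proteasome lists were taken by name and hold genes not known as subunits, among them Rps19bp1, Rpl7l1 and Psmc3ip. The lists were compared by these counts alone.

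**Figure D3:**
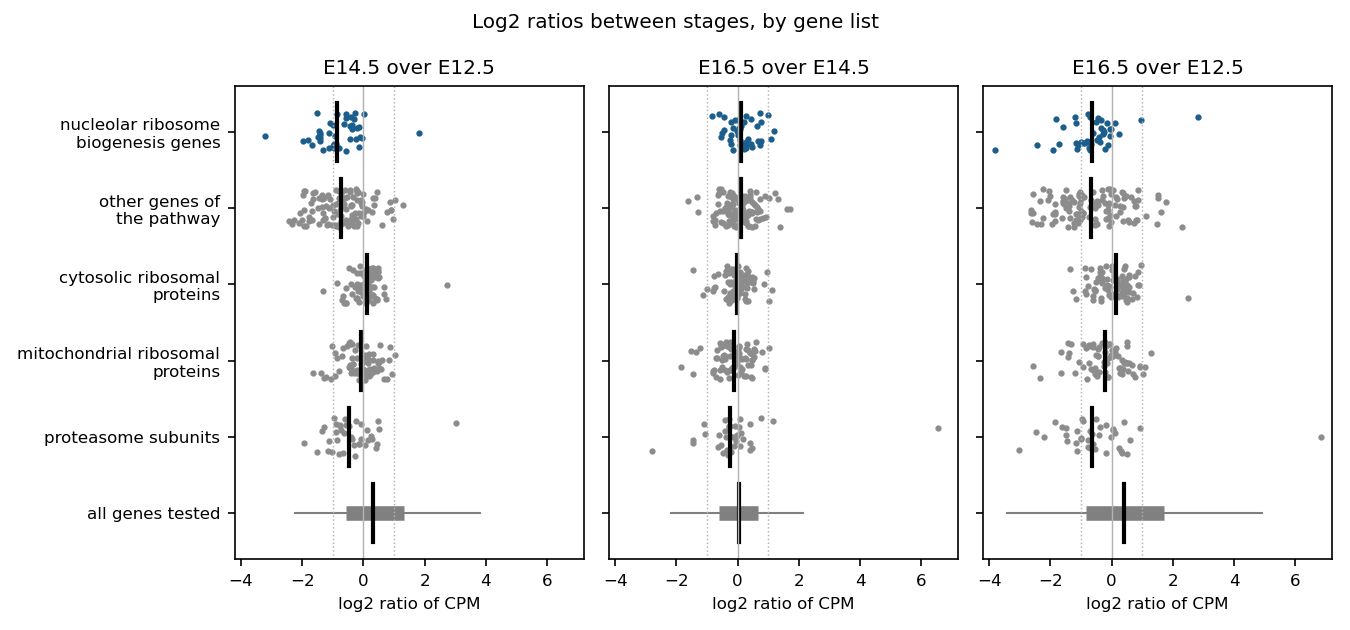
Log2 ratio of CPM (x axis) for each pair of stages, with 1 point per gene and black lines at list medians. For all genes tested the box spans the middle 50% and the thin line the middle 90%, and dotted lines mark 2-fold. At E14.5 over E12.5 the median of the 42 genes is -0.88, and that of cytosolic ribosomal protein genes is 0.12.

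Cells of 1 stage differ in how far they have gone into meiosis, so the levels were also followed within each library. Germ-cell-like cells were thinned to 5000 UMIs and put into 5 equal groups (quintiles) by the UMIs of 18 early germ cell genes relative to those of 24 meiotic genes, from most early (quintile 1) to most meiotic (quintile 5). At E12.5 the summed level of the 42 genes was 9938, 9949, 10030, 9934 and 9845 CPM over quintiles 1 to 5. At E14.5 it was 6256, 5646, 5573, 5871 and 6562 CPM, lowest in the middle. At E16.5 it was 6051, 6367, 6836, 6989 and 6650 CPM. Every quintile of E12.5 thus stood above every quintile of the later stages. The ratio of quintile 5 over quintile 1 was 0.991 (95% counting interval 0.978 to 1.00) at E12.5, 1.05 (1.04 to 1.06) at E14.5 and 1.099 (1.08 to 1.12) at E16.5. Quintile 5 of E16.5 held 0 UMIs of the early genes, so cells tied there and the split between its top quintiles is arbitrary.

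At E14.5 the genes ran in opposite orders. Npm1 and Ncl together had 3413, 3162, 3151, 3429 and 3985 CPM over quintiles 1 to 5, while the other 40 genes were 0.907 times as high in quintile 5 as in quintile 1 (0.890 to 0.923). In quintile 5 against quintile 1, 13 of the 42 genes were lower by at least 1.5-fold and 4 were higher, beside 36.0% and 28.7% of the 9995 genes with enough UMIs. At 2-fold the numbers were 8 lower and 1 higher, beside 26.3% and 19.0%. The shares of the 42 were close to or below those of all genes.

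Some genes that were far lower at E14.5 than at E12.5 were also lower in quintile 5, and others were not. Nol9 had 21.4, 12.6, 8.89, 4.05 and 3.82 CPM over quintiles 1 to 5 of E14.5, a ratio of 0.18 (0.120 to 0.259) for quintile 5 over quintile 1 that rests on 34 UMIs against 190. Rrp9 had 28.6, 15.3, 9.11, 6.07 and 6.30 CPM over the same groups. Dkc1 had 126, 119, 89.3, 54.0 and 40.3 CPM, a ratio of 0.319 (0.282 to 0.359). The first quintile of E14.5 thus stood below the whole E12.5 library for both genes, at 28.6 against 132 CPM for Rrp9 and 126 against 178 CPM for Dkc1. Nol6, Rrp7a, Rrs1, Rrp36 and Gar1 were also at least 2-fold lower, with ratios of 0.370, 0.443, 0.450, 0.485 and 0.499. Utp15, 3.50-fold lower at E14.5 than at E12.5, had a ratio of 1.07 (0.732 to 1.57) for quintile 5 over quintile 1.

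Pes1 ran the other way, with 47.3, 57.4, 80.2, 98.3 and 100 CPM over quintiles 1 to 5 and a ratio of 2.12 (1.89 to 2.39). Its PeBoW partner Bop1 had 24.2 CPM in quintile 5 and 21.1 CPM in quintile 1. Utp18, Rrp1b and Nol8 were at least 1.5-fold higher in quintile 5, with ratios of 1.72, 1.55 and 1.504. Nop10 was 1.33-fold higher although Dkc1 and Gar1 of the same particle were lower. Cells of quintile 5 were shallower before thinning, with a median of 8904 UMIs against 13739 in quintile 1, and the part of depth was not tested. Cytosolic ribosomal protein genes summed to 301198 CPM in quintile 5 and 337292 CPM in quintile 1 of the same cells, a ratio of 0.893, beside 1.17 for Npm1 and Ncl and 0.813 for the processome genes. When the same thinned cells were ordered by their total UMIs instead, the deepest over the shallowest quintile gave 1.12 for ribosomal protein genes, 0.911 for Npm1 and Ncl and 1.15 for the processome genes. Each of these lay on the other side of 1 from its value in the order by early against meiotic genes. Depth and that order were not separated.

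At the other stages fewer genes differed between quintiles in this order. At E12.5, 0 of 41 genes with enough UMIs were at least 1.5-fold lower or higher in quintile 5, beside 2.49% and 5.20% of all genes. At E16.5, 0 were lower and 1 was higher by at least 1.5-fold (Rrp9, a ratio of 1.51), beside 9.67% and 2.77%. That Rrp9 ratio (1.05 to 2.18) rests on 80 UMIs in quintile 5 against 53 in quintile 1. The E16.5 values depend on the order, since cells without early UMIs tie. With cells ordered by the meiotic genes alone, the summed level was 8003 CPM in quintile 5 and 5409 CPM in quintile 1 of E16.5, a ratio of 1.48 (1.458 to 1.502). Npm1 and Ncl then had a ratio of 1.85 (1.82 to 1.89), box H/ACA genes 1.41 (1.34 to 1.496) and processome genes 0.922 (0.883 to 0.963).

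**Figure D4:**
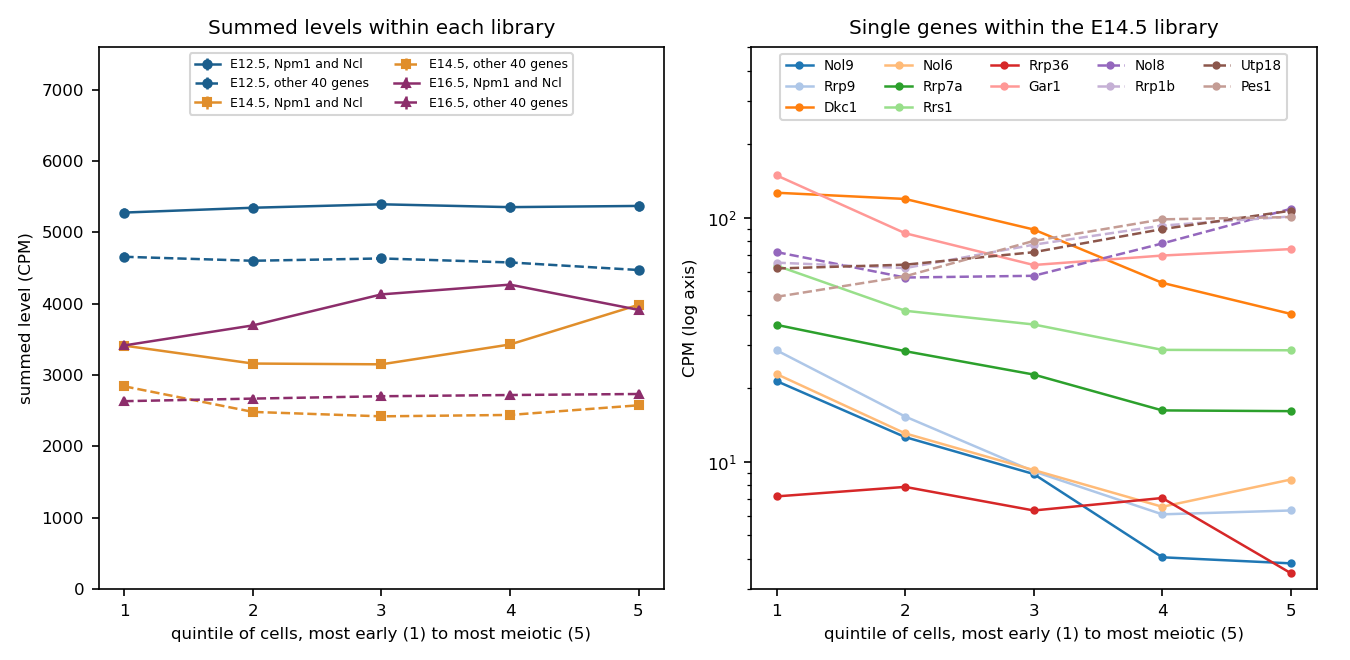
Left, summed CPM (y axis) of Npm1 and Ncl (solid) and of the other 40 genes (dashed) over quintiles of cells (x axis) within each library, with exact Poisson 95% intervals. Right, single genes within E14.5 on a log axis, where solid lines are the 8 genes at least 2-fold lower and dashed lines the 4 genes at least 1.5-fold higher in quintile 5 than in quintile 1.

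Levels also differed between clusters of a stage, and are described without a test since the clusters were made from the same cells' RNA. At E16.5 the cluster led by Pcdh17 and Prdm9 (2418 cells) had 7504 CPM of the 42 genes and the cluster led by Ablim1 and Myom3 (2583 cells) had 5640 CPM. Npm1 stood at 3497 CPM in the Prdm9 cluster and 2244 CPM in the Ablim1 cluster, Ncl at 1263 and 748 CPM, and Nop10 at 426 and 204 CPM. Dkc1 had the opposite order, with 46.5 CPM in the Prdm9 cluster and 106 CPM in the Ablim1 cluster. Nol8 was close in both, at 173 and 177 CPM in the same order. The median depths of both clusters were close, 12618.5 and 12594 UMIs per cell. The highest sum at E16.5 was in the 79 cells of the cluster led by Abhd18 and Slc25a42, at 8051 CPM. At E14.5 the same cluster (200 cells) had 7391 CPM, the cluster led by Tppp and Fgf11 6379 CPM, that led by Dlx3 and Cdh15 5985 CPM and that led by Stra8 and Msx1 5617 CPM. The Abhd18 and Slc25a42 cluster was the shallowest of those named here at both stages. Its median depth was 8085 UMIs per cell at E16.5 and 7001 at E14.5, and the part of depth was not tested.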

How the data were processed

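Cell Ranger 2.0.0 and FastQC were run with the build mm10, per the submitters' processing notes. The labels state no settings, strand or filters. The authors deposited 1 table of natural log values for 14133 genes and 19144 cells, scaled to 10000 per cell. Undoing the log gave whole UMI counts for 100.0% of the 68606039 non-zero values (within 0.01), and these counts were used.

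Filters of 500 genes, 1000 UMIs and 10% mitochondrial UMIs took out 0 cells. Scrublet in scanpy 1.11.5, at an expected rate of 6%, marked 38 cells (0.20%). That rate is so low that the caller cannot be taken to have worked, so doublets may remain. Leiden clustering (resolution 0.5, 30 components, 2000 variable genes, 15 neighbours) and fixed markers gave the germ-cell-like cells, whose UMIs were summed per stage (125161525, 102506950 and 68980723 in time order). Ratios are between CPM of these sums, and called means at least 2-fold. Within a library, genes needed 50 UMIs over quintiles 1 and 5. The counting script was tested on simulated data.

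Per role group, the gene of highest mean CPM and those of largest ratio (10 CPM or more in the higher stage) were named with values, as were the 5 largest ratios each way, every MYC family gene and, per pathway list, the same extremes. Other genes named with values, among them Utp18, Utp14a, Utp14b, Bop1, Wdr12, Pes1, Nop2 and Rrp1b, were chosen after their values were seen. The genes and lists were chosen with earlier results of these data known. Gene positions are from GENCODE M21 on GRCm38 (mm10). Python 3.11.15, numpy 2.4.6, scipy 1.17.1 and pandas 2.3.3 were used. Alternatives covered scaling, cells, depth, filters, fold and cell order.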

Additional observations from a re-analysis of the deposited data

How the results depend on the processing

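No paired analysis was possible because each stage is 1 library, and no replicate could be left out. At E14.5 against E12.5, genes at least 2-fold lower numbered 23 with scaling by the median of ratios and 23 with TMM (medians -1.21 and -1.15), 24 at 1.5-fold, and 2 by mean natural logs (median -0.27), a scale that shrinks ratios of sparse genes. Genes at least 2-fold higher numbered 0 by natural logs and 0 without Nol4l. At E16.5 against E14.5, natural logs gave 0 higher genes and 1.5-fold gave 2 lower and 9 higher. At E16.5 against E12.5, lower genes numbered 21 by the median of ratios and 21 by TMM (medians -1.03 and -0.98), 22 at 1.5-fold and 2 by natural logs (median -0.22). Higher genes numbered 0 by natural logs, 2 at 1.5-fold and 0 without Nol4l. For quintile 5 over quintile 1, E16.5 gave 1.15 with all UMIs, 1.03 by early genes alone and 1.48 by meiotic genes alone. E14.5 gave 1.07 with all cells and 1.07 by meiotic genes alone. Without Ncl and Npm1 the ratios were 0.96 at E12.5, 0.907 at E14.5, the one reversal, and 1.04 at E16.5. The causes were not tested. Of the values for single named genes under the alternatives, 252 stayed within the counting interval of the main value, 231 moved beyond it and 0 of those called at 2-fold changed sign. Every interval covers counting error alone, and none covers differences between animals.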
